A study of Mus musculus with 6 samples.

Results

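A set of 10 genes that mark the alveolar type 2 (AT2) cell of the lung was followed in RNA of CD31-selected mouse lung cells. They were the surfactant protein genes Sftpa1, Sftpb, Sftpc and Sftpd, the lamellar body and lipid genes Abca3, Lamp3, Lpcat1 and Slc34a2, the protease gene Napsa and the transcription factor gene Etv5. They were taken by symbol from a fixed list, and all 10 were found among the 24063 symbols in the files. The RNA came from endothelial cells (ECs) that were isolated with anti-CD31 magnetic beads from lungs of C57BL6 male mice, labelled as 8 weeks old (the methods of the study give an older age at surgery). The control mice were sham operated. The other mice had undergone unilateral pneumonectomy (PNX), the surgical removal of the left lung, after which the remaining lung grows. All lungs were taken on day 7. Each group had 3 libraries, each pooled from 2 mice, and neither group carried a genetic change.

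AT2 cells are cuboidal epithelial cells of the alveolus that make pulmonary surfactant, the mixture of phospholipids and proteins that lowers surface tension at the air-liquid interface. They store surfactant in lamellar bodies, secrete it, take much of it back, and serve as progenitors of the flat type 1 (AT1) cells. Their identity depends on the transcription factor NKX2-1 together with FOXA factors. The 10 genes were followed here as AT2 markers, but whether ECs made any of them was not tested. The counts do not show from which cells of the CD31-selected preparation their RNA came.

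The libraries held 29526989 to 81282871 counts. Replicates 1 and 2 of both groups are duplicate records of an earlier deposit and are marked as re-used in their titles, whereas replicate 3 of both groups is not. Within a group, replicates 1 and 2 differed by little more than counting error (chi-square per degree of freedom 1.75 in sham and 1.57 in PNX), while pairs with replicate 3 gave 67.9 to 86.4. Replicates 1 and 2 were therefore summed, which left 2 samples per group, an earlier and a later one. Nothing states that the samples are separate beyond the pooling of mice, so p-values measure only the spread between these samples. All 10 endothelial markers were present in every library, and Pecam1, which encodes CD31, lay between 2038 and 2494 CPM (counts scaled by library size) in sham and between 2106 and 2479 CPM in PNX.

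All 10 AT2 genes were lower after PNX, and for each of them the 3 PNX libraries lay below the 3 sham libraries. Such a separation was seen in 17.9% of the 16598 genes tested. Together the 10 genes took 0.556%, 0.559% and 0.620% of all counts in sham replicates 1, 2 and 3, and 0.369%, 0.366% and 0.222% in the PNX replicates. The median log2 fold change over the 10 genes was −0.81, beside −0.01 over all genes tested. In bulk RNA, fewer AT2 cells in the preparation and less of these transcripts per AT2 cell cannot be told apart.

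**Figure D1:**
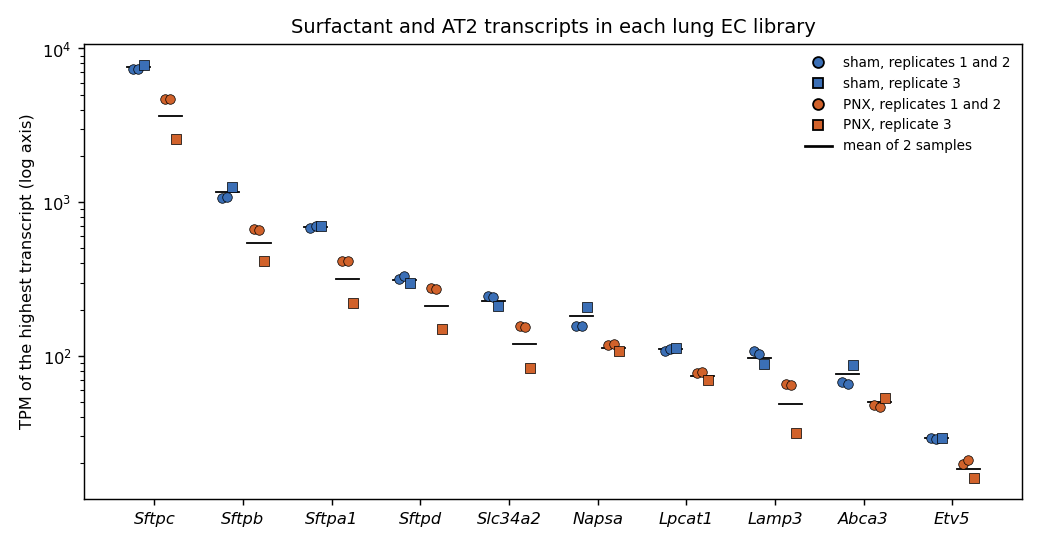
Levels of the 10 genes in each library, as the deposited TPM of the gene's highest transcript on a log axis. Circles are replicates 1 and 2, squares replicate 3, blue sham and orange PNX, and each bar is the mean of 2 samples (replicates 1 and 2 averaged first). For every gene all PNX points lie below all sham points, and Sftpc is the highest gene in both groups.

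Both thresholds of the study were applied, so that a call required an adjusted p below 0.01 together with a log2 fold change beyond 1 in size. By edgeR's quasi-likelihood test on the 4 samples without a block, 0 of the 10 genes were called, with adjusted p from 0.194 (Lpcat1) to 0.581 (Sftpd). This fit called 0 of all genes (0%), its lowest adjusted p being 0.0720. At an unadjusted p under 0.05, 9 of the 10 genes passed, all but Sftpd, beside 12.5% of all genes. DESeq2 on the same samples called 0 of the 10, where it called 0.494% of all genes lower, and limma-voom called 0 of the 10 and 0% of all genes. When the deposit was added as a replicate block, edgeR called 3 of the 10, Sftpa1, Sftpb and Lamp3, all lower after PNX, where 5.12% of all genes were called and 1.23% were called lower. At an adjusted p under 0.05 and any fold, all 10 genes were lower with the block, where this held for 10.1% of all genes and another 11.5% were higher. The block leaves 1 residual degree of freedom, and the call of 3 was lost when the library sizes were scaled by DESeq2's size factors or left unscaled (0 of the 10, with adjusted p from 0.0103 to 0.0741 by edgeR with the block, and 0.506% and 0.476% of all genes called lower). It was also lost without sham replicate 1, sham replicate 2 or PNX replicate 1 (0 of the 10 each), though all 10 log2 fold changes stayed below 0. The smallest p that an exact two-sided permutation test can reach with 2 samples against 2 is 0.333, so no such test was run. Below, "fell" is used of a gene that passed both thresholds with the block.

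The 4 surfactant protein genes held the highest levels per transcript length and 3 of the 4 largest log2 fold changes of the 10 genes. Sftpa1 encodes surfactant protein A, a collectin of the airspace that binds microbes and phospholipid. It lies on chromosome 14 from 41131782 to 41136452 (GRCm38, plus strand, 6 exons). It stood at 749, 766 and 775 CPM in sham, against 462, 462 and 242 CPM in PNX. The sham libraries were nearly level, and the lowest value was PNX replicate 3. The mean was 767 ± 0.764 CPM in sham and 352 ± 152 CPM in PNX (SD, n = 2). With the block Sftpa1 fell, with a log2 fold change of −1.19 (SE 0.20, edgeR adjusted p = 0.00682).

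Sftpb encodes surfactant protein B, the hydrophobic peptide without which surfactant films and lamellar bodies do not form and breathing fails at birth. The Sftpb gene spans 72304610 to 72314371 of chromosome 6 (plus strand, 11 exons). Its levels were 1255, 1277 and 1516 CPM in sham, against 808, 801 and 491 CPM in PNX. Sham replicate 3 was the highest library and PNX replicate 3 the lowest, so the gap was wider in the later deposit. Sftpb fell by 1.14 on the log2 scale with the block (SE 0.21, edgeR adjusted p = 0.00917). Under DESeq2 with the same block its fold change was the same to 2 decimals, but its adjusted p was 0.0898. Its 2 transcripts had nearly the same counts in every library, for instance 50519 and 50594 in sham replicate 1. Its summed CPM may therefore count many reads on both of them, but the counting rule is not given.

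Sftpc encodes surfactant protein C, a short lipopeptide made by AT2 cells and the most used marker of this cell type. The Sftpc gene spans 70520949 to 70524081 of chromosome 14 (minus strand, 6 exons). Its levels were 2346, 2338 and 2529 CPM in sham, against 1526, 1514 and 812 CPM in PNX. The sham libraries stayed close to each other, while PNX replicate 3 was well below the other PNX libraries. The log2 fold change was −1.13 with the block (SE 0.22), and the adjusted p of 0.0117 by edgeR lay just above the threshold of 0.01, so Sftpc was not called. DESeq2 with the block did call it, together with Sftpa1 and Lamp3, where 1.27% of all genes were called lower.

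Sftpd encodes surfactant protein D, the second collectin, and lies near Sftpa1 on chromosome 14 from 41172214 to 41185149 (minus strand, 8 exons). It was at 167, 174 and 160 CPM in sham and at 148, 146 and 77.9 CPM in PNX. Only PNX replicate 3 was far from sham, and PNX replicates 1 and 2 lay close under the lowest sham library. Its log2 fold change with the block was −0.61 (SE 0.17, edgeR adjusted p = 0.0384). In the fit without a block and without PNX replicate 3 it was −0.17, the smallest of the 10.

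Lamp3 encodes a glycoprotein of the limiting membrane of lysosomes and lamellar bodies. The Lamp3 gene spans 19653378 to 19706375 of chromosome 16 (minus strand, 6 exons). It was at 142, 137 and 118 CPM in sham and at 88.9, 88.0 and 41.5 CPM in PNX. Replicate 3 was the lowest library of each group, yet sham replicate 3 stayed above every PNX library. Lamp3 fell by 1.07 on the log2 scale with the block (SE 0.17, edgeR adjusted p = 0.00548). Lamp3 is also a marker of mature dendritic cells. Of 8 other markers of those cells, Ccr7 fell with the block (log2 fold change −1.15, SE 0.12, edgeR adjusted p = 0.000798), and Fscn1 rose (1.64, SE 0.12, edgeR adjusted p = 0.000171). At an adjusted p under 0.05 with the block, 2 of the 8 were lower and 2 were higher, beside 10.1% and 11.5% of all genes. Socs2 and Cd83 were the most abundant. The summed level of the 8 was 346 to 485 CPM in sham and 368 to 445 CPM in PNX. The part of dendritic cells in the Lamp3 result was not tested.

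Since Sftpa1, Sftpb and Lamp3 were the 3 genes called with the block, the 250 bases before their RefSeq start sites are shown, 5′ to 3′ on the gene's strand (GRCm38.p6). Capitals in the first and second mark CTCAAG, a core of NKX2-1 sites, and capitals in the third mark a match to TNTTTAC, a core of FOXA sites. The windows are chr14:41131538-41131787 (plus strand), chr6:72304360-72304609 (plus strand) and chr16:19706366-19706615 (minus strand).
Sftpa1: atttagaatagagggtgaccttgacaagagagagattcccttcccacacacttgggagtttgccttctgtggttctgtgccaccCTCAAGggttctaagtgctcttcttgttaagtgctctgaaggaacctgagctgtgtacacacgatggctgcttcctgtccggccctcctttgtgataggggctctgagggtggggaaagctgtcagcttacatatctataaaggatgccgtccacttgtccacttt
Sftpb: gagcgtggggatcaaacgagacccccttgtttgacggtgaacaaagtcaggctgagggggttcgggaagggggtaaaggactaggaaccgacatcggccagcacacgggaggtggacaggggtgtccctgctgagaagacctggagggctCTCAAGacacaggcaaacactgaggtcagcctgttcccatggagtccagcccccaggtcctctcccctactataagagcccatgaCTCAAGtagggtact
Lamp3: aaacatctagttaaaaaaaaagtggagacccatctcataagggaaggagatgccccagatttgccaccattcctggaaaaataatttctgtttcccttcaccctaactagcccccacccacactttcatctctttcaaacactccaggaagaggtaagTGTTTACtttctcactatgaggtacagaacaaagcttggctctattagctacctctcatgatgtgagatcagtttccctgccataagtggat

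The Sftpb window held CTCAAG starting 100 and 15 bases before the start site, and the Sftpa1 window held it 166 bases before. The Lamp3 window held TNTTTAC 92 bases before. Of the 10 genes, 7 had a promoter entry (Sftpc, Sftpd and Napsa had none), and of the 7, 2 held CTCAAG, 2 held TNTTTAC (Lamp3 and Etv5) and 0 held CCGGAAG, an ETS core. On both strands, CTCAAG was found in 13.3%, TNTTTAC in 10.9% and CCGGAAG in 6.91% of 32851 windows of the same length. Etv5 has 2 start sites and so 2 windows, and its match to TNTTTAC was in 1 of them. The matches in the windows of the 7 genes did not overlap one another. A match describes letters in the window and shows no binding.

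Slc34a2 encodes the sodium-phosphate cotransporter of the AT2 apical membrane, which takes up phosphate released from surfactant phospholipid. The Slc34a2 gene spans 53038081 to 53071664 of chromosome 5 (plus strand, 13 exons). Its levels were 405, 399 and 355 CPM in sham, against 263, 259 and 138 CPM in PNX. PNX replicate 3 was the lowest and the groups did not overlap. With the block its log2 fold change of −0.99 just missed the fold threshold (SE 0.16, edgeR adjusted p = 0.00550).

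Abca3 encodes the transporter that loads phospholipid into lamellar bodies. The Abca3 gene spans 24351950 to 24410201 of chromosome 17 (plus strand, 33 exons). It was at 340, 333 and 447 CPM in sham and at 249, 242 and 268 CPM in PNX. As for Sftpb, its 2 transcripts had nearly the same counts, so the summed CPM may count many reads on both. Replicate 3 was the highest library in both groups, unlike in the other 9 genes, and the groups again did not overlap. The log2 fold change with the block was −0.59 (SE 0.10, edgeR adjusted p = 0.00685).

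Lpcat1 encodes the acyltransferase that makes the dipalmitoyl phosphatidylcholine of surfactant. The Lpcat1 gene spans 73467197 to 73516422 of chromosome 13 (plus strand, 14 exons). It was at 68.6, 70.8 and 72.5 CPM in sham and at 50.3, 50.8 and 43.9 CPM in PNX. The groups were tight and well apart. Its log2 fold change with the block was −0.59 (SE 0.09, edgeR adjusted p = 0.00436). With the 6 libraries taken as separate and no block it had the lowest adjusted p of the 10 by edgeR (0.00990), with a log2 fold change of −0.55. That fit counts replicates 1 and 2 as separate samples, although they differed by little more than counting error. On the 4 samples without a block the edgeR adjusted p of Lpcat1 was 0.194.

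Napsa encodes napsin A, an aspartic protease that takes part in maturing the surfactant protein B precursor. The Napsa gene spans 44572380 to 44586862 of chromosome 7 (plus strand, 9 exons). It was at 91.4, 91.6 and 124 CPM in sham and at 70.7, 71.1 and 63.0 CPM in PNX. Sham replicate 3 was high and PNX replicate 3 was low. The log2 fold change with the block was −0.66 (SE 0.13, edgeR adjusted p = 0.0119).

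Etv5 encodes an ETS family transcription factor needed to keep the AT2 state. The Etv5 gene spans 22381309 to 22439719 of chromosome 16 (minus strand, 13 exons). It was the lowest of the 10, at 44.3, 43.5 and 45.1 CPM in sham and at 30.7, 32.6 and 24.1 CPM in PNX. The sham libraries lay within 2 CPM of each other and above every PNX library. The log2 fold change with the block was −0.68 (SE 0.11, edgeR adjusted p = 0.00563). Abca3, Napsa and Slc34a2 have annotated genes on the opposite strand, and the strand setting of the counts is not given, so reads of these neighbours may be part of their values.

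Per transcript length, on the TPM scale, Sftpc stood far above the rest. In sham its mean was 7616 ± 328 TPM (SD, n = 2), followed by Sftpb with 1169 ± 136, Sftpa1 with 693 ± 3.34, Sftpd with 313 ± 18.3, Slc34a2 with 228 ± 22.6, Napsa with 183 ± 36.7, Lpcat1 with 111 ± 1.81, Lamp3 with 97.0 ± 12.3, Abca3 with 76.8 ± 14.5 and Etv5 with 29.3 ± 0.260 TPM. These are values of the highest transcript of each gene. No 2 neighbours in this order overlapped between their sham libraries, but Slc34a2 and Napsa, and Lamp3 and Abca3, differed by less than the sum of both SDs. Among all symbols Sftpc ranked 2, 2 and 3 in the sham libraries and 3, 3 and 10 in the PNX libraries. With TPM summed over the transcripts of each symbol, as planned, Sftpc ranked 3, 3 and 4 in sham and 7, 7 and 23 in PNX. In PNX the mean was 3623 ± 1500 TPM for Sftpc and 18.3 ± 3.17 TPM for Etv5, still the highest and lowest, while the libraries of Sftpa1 and Sftpd, Sftpd and Slc34a2, Slc34a2 and Napsa, and Abca3 and Lamp3 overlapped. Summing both transcripts of a gene would raise Sftpb to 2286 and Abca3 to 153 TPM in sham. Abca3 would then stand above Lpcat1 and Lamp3, so its place in the order depends on the counting rule, which is not given.

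The observed size of the difference was not the same in the earlier and the later deposit. Within the earlier deposit (replicates 1 and 2) the PNX sample kept 59.9% of the sham level for Sftpa1, the lowest share, and 84.8% for Sftpd, the highest. Within the later deposit (replicate 3) it kept 31.8% for Sftpa1 and 61.7% for Lpcat1, again the lowest and highest. On the log2 scale the differences ran from −0.74 to −0.24 in the earlier deposit (median −0.58) and from −1.65 to −0.70 in the later one (median −1.17), beside medians of −0.03 and 0.00 over all genes. All 10 genes were lower in both deposits, as were 39.3% of all genes. All 10 also differed more in the later deposit, but the share of all genes that did so was not counted. Whether the effect differed between deposits could not be tested, since 4 samples leave no residual degree of freedom for an interaction.

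**Figure D2:**
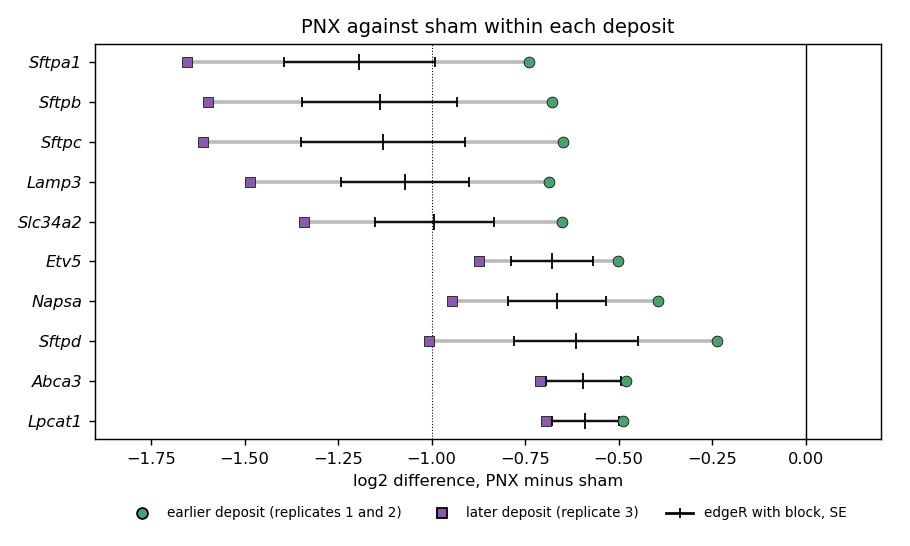
Log2 difference between PNX and sham for each gene (x axis) within the earlier deposit (green circles) and the later deposit (purple squares), with the edgeR log2 fold change with the replicate block and its SE in black; the dotted line marks −1. All points lie left of 0, and Sftpa1, Sftpb and Sftpc span the widest ranges, from about −0.7 to −1.6.

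The sham samples of the deposits were close to each other for these genes, with a median log2 difference of 0.02 between the later and earlier sham samples, whereas the later PNX sample lay lower than the earlier one by a median of −0.79. In sham the later sample was higher by 0.38 for Abca3, 0.40 for Napsa and 0.23 for Sftpb, and Lamp3, Slc34a2 and Sftpd were lower there by −0.27, −0.21 and −0.13. For 8 genes the shift between deposits was larger in PNX than in sham, a share that was not counted over all genes. The exceptions were Abca3, whose later PNX sample was higher by 0.15, and Napsa, whose later PNX sample was lower by −0.15, so that their wider gap in the later deposit came wholly or mostly with the higher sham sample. Without PNX replicate 3 and without a block, the median over the 10 genes was −0.58, and all 10 remained below 0.

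Profiles over the 6 libraries were then compared with that of Sftpc, by the root mean square (RMS) difference of log2 CPM after each gene was centred on its mean. This measure is a description, since it shares libraries among all genes. Sftpa1 was nearest of all genes tested (RMS 0.0470), Sftpb was 4th (0.0820), Slc34a2 12th (0.107) and Lamp3 20th (0.131). Sftpd and Etv5 followed at ranks 169 and 175, Lpcat1 at 445, Napsa at 562 and Abca3 at 1535, with an RMS difference of 0.413. The 10 nearest genes outside the list were Cxcl15 (0.0630), Slc4a5, Six4, Lgi3, Itih4, Bex2, Ppp1r14c, Myo5c, Chchd10 and Atp6v1c2 (0.111). Of these, Cxcl15, a chemokine of lung epithelium, Lgi3, Bex2 and Ppp1r14c were on the list of other AT2 markers. Of the 50 nearest genes, 4 were among the 10, 8 were other AT2 markers, 0 were AT1 markers and 0 were club airway markers. The 10 genes and the 15 other AT2 markers were a small part of the 16598 genes tested.

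The 15 other AT2 markers measured were present in every library and were mostly lower after PNX as well. Their median log2 fold change with the block was −0.85, beside −0.84 for the 10 genes and −0.01 for all genes. At an adjusted p under 0.05 (edgeR with the block), 13 of the 15 were lower, beside 10.1% of all genes. Acoxl fell by 1.45 (SE 0.22, edgeR adjusted p = 0.00423) and Hc, which encodes complement C5, fell by 1.25 on the log2 scale (SE 0.17, edgeR adjusted p = 0.00248). The most abundant, Cxcl15 and Kcnj15, had log2 fold changes of −1.05 (SE 0.23, edgeR adjusted p = 0.0178) and −0.85 (SE 0.14, edgeR adjusted p = 0.00671). Lrp2, chosen after its values were seen as the sole marker that was not lower, stood at 16.4, 16.2 and 26.4 CPM in sham and at 15.6, 15.8 and 31.8 CPM in PNX. As for the 10 genes, the later deposit had the larger difference (median −1.34, against −0.48 in the earlier one).

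**Figure D3:**
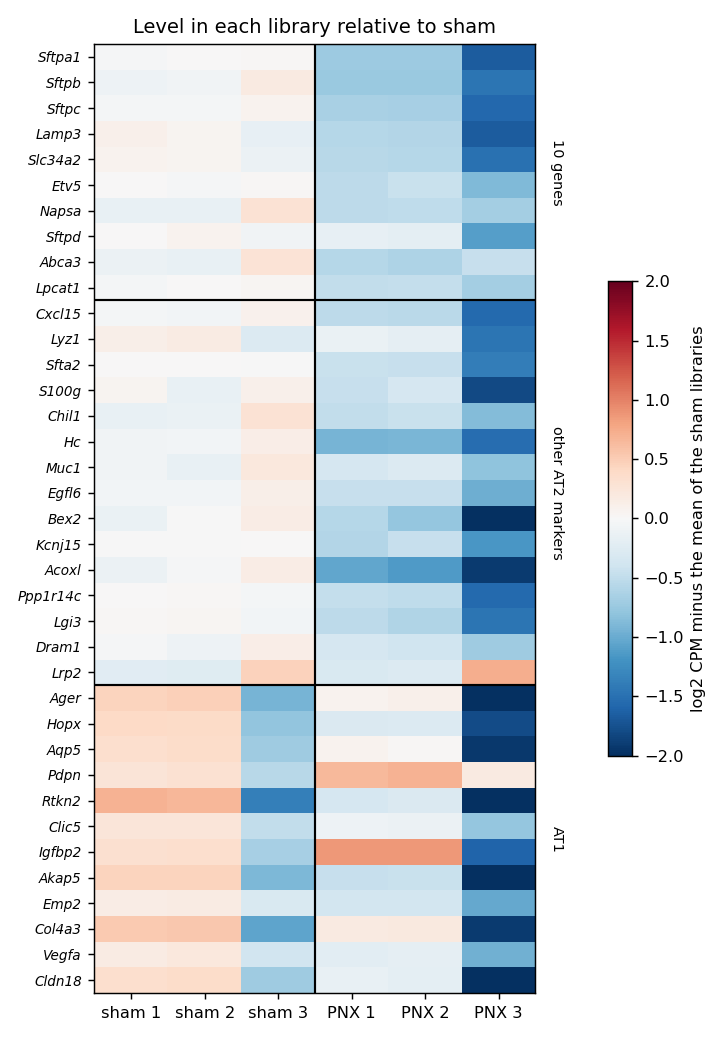
Log2 CPM of the 10 genes, 15 other AT2 markers and 12 AT1 markers (rows) in each library (columns), minus the mean of the 3 sham libraries, with colours limited to −2 to 2. The AT2 rows are near 0 in all sham libraries and lowest in PNX replicate 3, with Abca3 and Lrp2 as exceptions, whereas most AT1 rows are already low in sham replicate 3.

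Among 8 regulators of surfactant genes, 5 were lower and 1 was higher at an adjusted p under 0.05 with the block, beside 10.1% lower and 11.5% higher among all genes, with a median log2 fold change of −0.71. Foxa1, a pioneer factor of lung epithelium, fell from 8.72, 8.08 and 7.45 CPM in sham to 4.14, 4.15 and 2.08 CPM in PNX (log2 fold change −1.35, SE 0.20, edgeR adjusted p = 0.00426). Nkx2-1, named after its values were seen for the sites shown above, was at 49.9, 47.8 and 28.7 CPM in sham and at 33.4, 33.6 and 11.4 CPM in PNX, so that sham replicate 3 lay below PNX replicates 1 and 2. Its log2 fold change with the block was −0.90 (SE 0.16, edgeR adjusted p = 0.00881). The most abundant of the 8, Nfib and Cebpa, had log2 fold changes of −0.02 and −0.22 (SE 0.10 and 0.08, edgeR adjusted p = 0.926 and 0.101). Both are also active in cells other than AT2 cells. The sole regulator that was higher, Gata6, also named after its values were seen, was at 16.5, 17.1 and 14.0 CPM in sham and at 25.4, 27.0 and 24.2 CPM in PNX (log2 fold change 0.71, edgeR adjusted p = 0.00341).

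The general machinery of surfactant lipid and lamellar bodies, which many cell types share, showed smaller differences. Of 14 lipid synthesis genes, 0 were called with the block, 3 were lower and 1 was higher at an adjusted p under 0.05 (10.1% and 11.5% among all genes), and their median log2 fold change was −0.13. Scd1, the stearoyl-CoA desaturase, was at 311, 310 and 410 CPM in sham and at 215, 216 and 185 CPM in PNX (log2 fold change −0.83, SE 0.14, edgeR adjusted p = 0.00661), and Elovl1, a fatty acid elongase, had a log2 fold change of −0.22 (SE 0.11, edgeR adjusted p = 0.198). Of 9 genes of surfactant processing, lamellar bodies and uptake, 0 were called and 1 was lower at an adjusted p under 0.05. This was Gpr116 (now Adgrf5), a receptor that limits the surfactant pool and is also made by lung ECs, at 2307, 2341 and 1990 CPM in sham and at 1493, 1492 and 1305 CPM in PNX (log2 fold change −0.62, SE 0.12, edgeR adjusted p = 0.0113). The other abundant gene, Atp11a, had a log2 fold change of −0.02 (SE 0.11). The median of the 9 was 0.08.

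Surfactant is also cleared by alveolar macrophages under the control of GM-CSF. Of 7 genes of this route, 2 were called higher with the block, where 3.89% of all genes were called higher, and 0 lower. The scavenger receptor genes Marco and Msr1 rose by 2.36 (SE 0.26, edgeR adjusted p = 0.00122) and 2.37 (SE 0.31, edgeR adjusted p = 0.00228) on the log2 scale. Marco stood at 18.7, 18.3 and 19.9 CPM in sham and at 145, 149 and 63.2 CPM in PNX. The GM-CSF receptor gene Csf2rb and the sterol exporter gene Abcg1 had log2 fold changes of 0.21 (SE 0.08, edgeR adjusted p = 0.105) and −0.15 (SE 0.08, edgeR adjusted p = 0.225). Csf2rb was higher in replicate 3 of either group than in the other libraries.

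**Figure D4:**
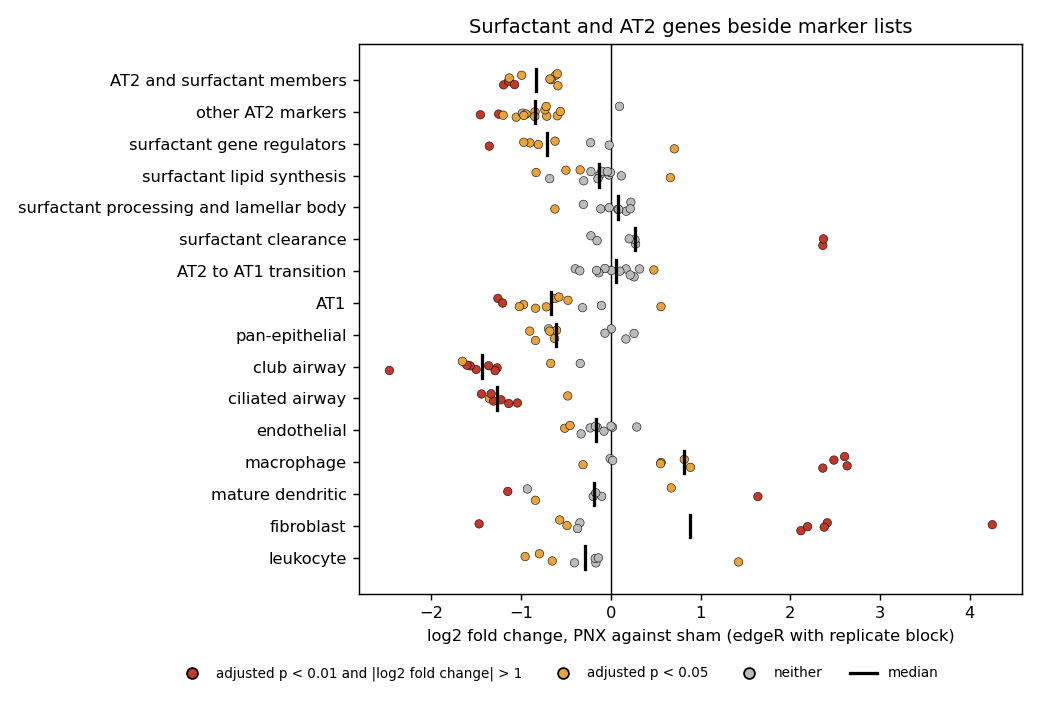
Log2 fold change between PNX and sham by edgeR with the replicate block (x axis) for each gene of the AT2 list and of 15 lists of related genes and cell type markers (rows). Red points passed both thresholds, orange points an adjusted p under 0.05, grey points neither, and black bars are medians. The AT2 and other AT2 lists centre on −0.84 and −0.85, the club and ciliated airway lists lie further left, and the macrophage and fibroblast lists extend to the right.

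Most markers of other epithelial cells were lower as well. Among all genes, 1.23% were called lower with the block. At an adjusted p under 0.05, 10.1% of all genes were lower and 11.5% were higher. Of 10 club cell markers, 7 fell with the block (median −1.43), among them Scgb1a1, the club cell secretoglobin (−1.50, SE 0.21, edgeR adjusted p = 0.00297), and Bpifa1 (−2.47, SE 0.16, edgeR adjusted p = 8.51e-05). Cbr2, with Scgb1a1 among the most abundant, had a log2 fold change of −1.36 (SE 0.16, edgeR adjusted p = 0.00146). The summed club level was 3462 to 5568 CPM in sham and 1556 to 1848 CPM in PNX. Of 8 ciliated cell markers 6 fell, with Foxj1, the master factor of motile cilia, at −1.14 (SE 0.13, edgeR adjusted p = 0.00152). The most abundant, Tppp3, had a log2 fold change of −0.48 (SE 0.08, edgeR adjusted p = 0.007025). The summed ciliated level was 199.9 to 218 CPM in sham and 118 to 141 CPM in PNX. Of 12 AT1 markers, 2 fell, Rtkn2 (−1.26, SE 0.15, edgeR adjusted p = 0.00146) and Akap5 (−1.21, SE 0.14, edgeR adjusted p = 0.00145), and 9 were lower at an adjusted p under 0.05. Pdpn, chosen after its values were seen as the sole AT1 marker higher at this threshold, had a log2 fold change of 0.56 (edgeR adjusted p = 0.0122). Vegfa and Ager, the most abundant AT1 markers, were at −0.48 (SE 0.13, edgeR adjusted p = 0.0422) and −0.97 (SE 0.25, edgeR adjusted p = 0.0325). AT1 markers differed from the 10 genes between the sham samples, where their median was lower by −1.09 in the later deposit. Their summed level was 6268 to 11555 CPM in sham and 3648 to 8628 CPM in PNX, so the groups overlapped. No marker of these lists was at 0 in any library, and the part of a changed epithelial share in the AT2 result was not tested.

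The 10 endothelial markers had a median log2 fold change of −0.16 with the block, with 0 called and 2 lower at an adjusted p under 0.05. Among all genes, 10.1% were lower and 11.5% higher at that threshold, while 3.89% were called higher and 1.23% lower. The summed endothelial level was 9959 to 11872 CPM in sham and 8814 to 9783 CPM in PNX. Eng had a log2 fold change of −0.45 (SE 0.13, edgeR adjusted p = 0.0492) and Pecam1 of 0.02 (SE 0.13, edgeR adjusted p = 0.931). Of 11 macrophage markers, 4 rose, led by the complement genes C1qc, C1qb and C1qa (2.63, 2.61 and 2.49). At an adjusted p under 0.05, 8 were higher and 1 was lower. Lyz2 and Chil3, the most abundant, were at −0.01 (SE 0.15, edgeR adjusted p = 0.980) and 0.89 (SE 0.26, edgeR adjusted p = 0.0472). The summed macrophage level of 3323 to 6135 CPM in sham overlapped that in PNX, 5761 to 6355 CPM. Of 10 fibroblast markers, 5 rose and 1 fell, and 5 were higher and 3 lower at an adjusted p under 0.05. Npnt and Col3a1, the most abundant, were at −0.37 (SE 0.20, edgeR adjusted p = 0.232) and 2.38 (SE 0.12, edgeR adjusted p = 3e-05). Inmt, named after its values were seen as the gene that fell, was at −1.47 (SE 0.18, edgeR adjusted p = 0.00192). The summed fibroblast level was 3990 to 4180 CPM in sham and 6227 to 6265 CPM in PNX. Of 8 leukocyte markers, 0 were called, and 3 were lower and 1 was higher at an adjusted p under 0.05. Their summed level of 706 to 1636 CPM in sham overlapped that in PNX, 895 to 1431 CPM. Ptprc and Itgam, the most abundant leukocyte markers, were at −0.17 (SE 0.11, edgeR adjusted p = 0.344) and 1.42 (SE 0.27, edgeR adjusted p = 0.0109). The part of these other cell types in the lower share of AT2 transcripts was not tested.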

How the data were processed

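RNA of CD31-selected lung ECs was measured in 3 sham and 3 PNX libraries. Paired-end reads of stranded libraries were aligned by the authors to mm10 (GRCm38; STAR is named in the submitters' processing notes) and the authors deposited, for 33068 RefSeq transcripts, counts with FPKM and TPM beside them. Counting rule, strand setting and annotation version remain not given in the sources used here. Deposited FPKM values were not used, and the deposited TPM served for levels between genes only. Summing TPM per symbol was planned; the highest transcript was used in its place after Sftpb and Abca3 were seen to have near-identical transcripts.

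Counts were summed per symbol and tested with edgeR 4.0.16 (TMM, filterByExpr, quasi-likelihood, Benjamini-Hochberg over all genes) in R 4.3.3. The fits were also run on simulated counts with changes larger than those of the 10 genes, which does not show how well changes of their size are found. The SE is the log2 fold change over the square root of F, an approximation. DESeq2 1.42.0, limma 3.58.1 (voom), scalings, filters and left-out libraries were alternatives. The block was taken from the re-used mark in the titles, and no label states that sham and PNX samples were prepared in pairs. The later-minus-earlier difference of a gene in sham went along with its difference in PNX (r = 0.61 by Pearson and 0.67 by Spearman over 16598 genes, which are not independent replicates). CPM values are TMM-scaled. Positions are from GENCODE on GRCm38 and promoters from RefSeq. Intervals of counting error are small here, the lowest count of the 10 genes being 720.

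The genes and lists were chosen with earlier results of these data known. Named genes are the 10, the 2 most abundant of each list and the 10 nearest to Sftpc. Some genes that passed both thresholds with the block are also named, but not all of those in the lists of other cell types. Gpr116, Ctgf and Emr1 were matched by older symbols.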

Additional observations from a re-analysis of the deposited data

How the results depend on the processing

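All 10 genes were lower after PNX under each of the 27 alternatives, and the median over the 10 ran from −1.26 (without PNX replicates 1 and 2) to −0.58 (without PNX replicate 3). The number of the 10 called was 0 without a block under every tool, scaling and filter, and 3 with the replicate block under edgeR (Sftpa1, Sftpb and Lamp3) or DESeq2 (Sftpa1, Sftpc and Lamp3), but 0 with the block and 6 libraries or another scaling. With the block and 1 library left out it was 0 to 3, being 3 without PNX replicate 2 and 0 without sham replicate 1, sham replicate 2 or PNX replicate 1. At an adjusted p under 0.05 and any fold it was 10 with the block. Over all genes, 0 were called on 4 samples without a block (0 to 2 with 1 library left out), 409 with 6 libraries, 572 by DESeq2 and 921 by DESeq2 with 6 libraries. With the replicate block 849 were called, 920 with 6 libraries, 813 by DESeq2, 624 with DESeq2's size factors, 629 with unscaled library sizes, 485 to 863 with 1 library left out (671 and 668 without sham replicates 1 and 2 in turn), and 3584 at an adjusted p under 0.05 and any fold. TPM of the highest transcript in place of the sum, chosen after seeing the data, lowered Sftpb from 1059 to 542 and Abca3 from 99.96 to 50.3 in PNX. Removing replicate 3 of a group leaves a lone sample in it, assumed to vary like the other group. With 2 samples per group, precision was limited by the spread between samples and not by depth.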

Other observations

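Genes of the state between AT2 and AT1 cells, which appears when AT2 cells differentiate, were present at modest levels. Of 12 such genes, 0 were called with the replicate block and 1 was higher at an adjusted p under 0.05, beside 11.5% of all genes, with a median log2 fold change of 0.05. The gene was Lgals3, at 167, 169 and 330 CPM in sham and at 277, 276 and 390 CPM in PNX (log2 fold change 0.48, SE 0.12, edgeR adjusted p = 0.0291), a gene that macrophages also express. Cdkn1a, a cell cycle inhibitor, had a log2 fold change of 0.17 (SE 0.09, edgeR adjusted p = 0.234). Krt8, the keratin most used to mark this state, was chosen after its values were seen and stood at 40.7, 40.5 and 44.4 CPM in sham and at 43.2, 44.7 and 41.2 CPM in PNX.

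Genes of epithelial cells in general did not move alike. Of 10, 5 were lower at an adjusted p under 0.05 with the block, beside 10.1% of all genes, and 0 were called. Their median log2 fold change was −0.61. The abundant keratins Krt7 and Krt19 had log2 fold changes of 0.17 (SE 0.08, edgeR adjusted p = 0.181) and 0.26 (SE 0.08, edgeR adjusted p = 0.0602). For Epcam and Cdh1, picked once their values were known, the log2 fold changes were −0.63 (SE 0.11, edgeR adjusted p = 0.00767) and −0.60 (SE 0.15, edgeR adjusted p = 0.0301).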
